A study of Mus musculus with 32 samples.

Results

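The genes examined here store, import, export and carry iron: Fth1 and Ftl1 (the heavy and light chains of ferritin), Slc40a1 (ferroportin), Tfrc (the transferrin receptor), Trf (transferrin), Slc11a2 (a divalent metal transporter), Cp (ceruloplasmin), Slc25a37 (a mitochondrial iron importer), Hmox1 (haem oxygenase 1) and Ireb2 (an iron-regulatory protein). They were chosen by name and are 10 of the 55341 genes in the count files. The files hold droplet single cell RNA-seq of CD11b- and ACSA-2-enriched cells from cortex and hippocampus of 16 female mice aged 15 months, with 1 library of each region per mouse. Values are given as CPM, the UMIs (unique molecular identifiers, each counting an RNA molecule) of a gene per 1000000 UMIs of a cell class in a mouse, or over all mice where called pooled, and the mouse was the replicate throughout.

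WT-vehicle (5 mice) and WT-PMX205 (3 mice) were wild type littermates, and Tg2576-vehicle (4 mice) and Tg2576-PMX205 (4 mice) were hemizygous Tg2576 mice on a B6/SJL background, which carry human APP695 with the Swedish mutation under a prion promoter. PMX205, an antagonist of the complement receptor C5aR1, was given in drinking water at 2 to 8 mg/kg/day for 12 weeks, and vehicle mice drank water alone. All mice were housed singly during treatment, and transcription inhibitors were present in the perfusion and dissociation buffers of every sample. The deposited genotype labels read WT and APP, and the groups follow them. The deposited strain labels name the Arctic model instead of Tg2576. They name a C5ar1 knockout in 5 mice and C5a overexpression under the GFAP promoter in 5 mice. The 6 mice without either C5 label were WT-vehicle 1, WT-PMX205 1 and 2, Tg2576-vehicle 1, and Tg2576-PMX205 2 and 3. Group comparisons were also fitted with the C5 label as a covariate, and no iron gene reached an edgeR adjusted p below 0.05 in those fits. The strain labels contradict the genotype label in 2 mice (WT-vehicle 4 and Tg2576-vehicle 3), so results are also given without those 2 mice where that changed them.

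The 32 libraries held 73 to 1586 barcodes and 37205 to 1072049 UMIs each, 13917 barcodes and 10017205 UMIs in all. After filtering, 5606 cells remained, and marker genes placed them in classes, with none of the iron genes among the markers. Microglia numbered 2654 (median 882.5 UMIs per cell), astrocytes 1200 (1071.5 UMIs), mural cells 214 (940 UMIs) and endothelial cells 162 (1070.5 UMIs). Another 1312 cells were left without a class, and 768 of the kept cells lay just above the 70% purity threshold, with 70 to 80% of their marker UMIs from 1 class. Each class held its own markers: 0 of 16 microglial, 0 of 13 astrocytic and 0 of 11 mural markers had no UMI in their class, and 1 of 12 endothelial markers had none. Some libraries shared barcodes: 289 occurred in more than 1 library, and 621 of the 5606 kept cells carried such a barcode. In 4 mice many barcodes of a library differed from another barcode only in the opening base (62.1% of barcodes in WT-vehicle 5, 60.5% in Tg2576-vehicle 4, 34.2% in Tg2576-PMX205 2 and 23.5% in Tg2576-PMX205 3, against 2.07% or less in the others). Fits with the shared barcodes left out and with the paired barcodes merged were made for each comparison, and fits with these mice as a batch term for the group comparisons.

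Cells take up transferrin-bound iron through the transferrin receptor, store what they do not use in ferritin and release it through ferroportin, the only known iron exporter of mammalian cells. Iron-regulatory proteins bind stem-loops called iron-responsive elements (IREs) when iron is scarce: in a 5′ UTR they block translation, and in a 3′ UTR they protect the mRNA from decay. In the brain, endothelial cells of the blood-brain barrier import iron from plasma, and microglia and macrophages are known for storing and recycling it.

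The members that carry such an element are shown because the direction of their control depends on which end of the mRNA holds it. A search of the annotated UTRs of the 10 genes (mm10, GENCODE M21, sense strand) for the letters CNNNNNCAGTGN with at least 4 of 5 paired bases in the upper stem found 8 elements in 5 genes. They are printed 5′ to 3′, 27 bases each, with the loop in capitals.
Fth1 5′ UTR, chr19:9982733-9982759 (+): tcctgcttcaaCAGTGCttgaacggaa
Ftl1 5′ UTR, chr7:45459780-45459806 (-): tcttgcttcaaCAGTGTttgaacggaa
Slc40a1 5′ UTR, chr1:45925466-45925492 (-): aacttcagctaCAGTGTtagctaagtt
Tfrc 3′ UTR element 1, chr16:32631220-32631246 (+): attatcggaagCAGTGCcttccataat
Tfrc 3′ UTR element 2, chr16:32631599-32631625 (+): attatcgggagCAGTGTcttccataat
Tfrc 3′ UTR element 3, chr16:32631664-32631690 (+): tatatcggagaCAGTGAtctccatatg
Tfrc 3′ UTR element 4, chr16:32631711-32631737 (+): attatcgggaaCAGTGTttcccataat
Slc11a2 3′ UTR, chr15:100395154-100395180 (-): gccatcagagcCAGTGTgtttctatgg

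The Fth1 and Ftl1 elements lie in the 5′ UTR, as does that of Slc40a1, whereas the 4 Tfrc elements and the Slc11a2 element lie in the 3′ UTR. The same letters and pairing occurred in the 5′ UTR of 0.951% of 20916 genes and in the 3′ UTR of 4.11% of 21045 genes. The Slc11a2 element had 4 paired bases and the others 5. These counts are of mRNA, so a block of translation by a 5′ element is outside what they measure.

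The UMIs of each gene in the kept cells ran from 62 for Hmox1 and 223 for Slc11a2 through 252 (Cp), 552 (Ireb2), 578 (Tfrc), 625 (Trf), 1069 (Slc40a1), 1111 (Slc25a37) and 2773 (Ftl1) to 20672 for Fth1. In the fit across cell classes 7 members passed the filter on low counts, and Hmox1, Slc11a2 and Cp did not and were not tested.

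Ferritin heavy chain mRNA was highest in microglia among the 4 classes with replicate mice. Fth1, which holds the ferroxidase site of ferritin, averaged 3566 ± 1453 CPM in microglia (SD, n = 16 mice), 2116 ± 432 in astrocytes (n = 13), 1883 ± 682 in endothelial cells (n = 5) and 1604 ± 408 in mural cells (n = 6). Microglia exceeded astrocytes in 12 of the 13 mice with both classes, by a fitted 1.70-fold (log2 0.76 ± 0.16 SE, edgeR adjusted p = 9.89e-06). Endothelial cells were below microglia in 5 of 5 mice without overlap (log2 -1.56 ± 0.26, edgeR adjusted p = 7.75e-08). Mural cells were below microglia in 6 of 6 mice, also without overlap, with no fit for this class. Endothelial cells and astrocytes were neighbours in this order: the fitted log2 difference of -0.80 (edgeR adjusted p = 0.00677) was lost under 6 alternatives, with adjusted p from 0.0541 to 0.267, among them the fit without TMM scaling, the fit without the mouse block (adjusted p = 0.128) and the fit without Tg2576-vehicle 3 (-0.60, adjusted p = 0.0760).

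**Figure D1:**
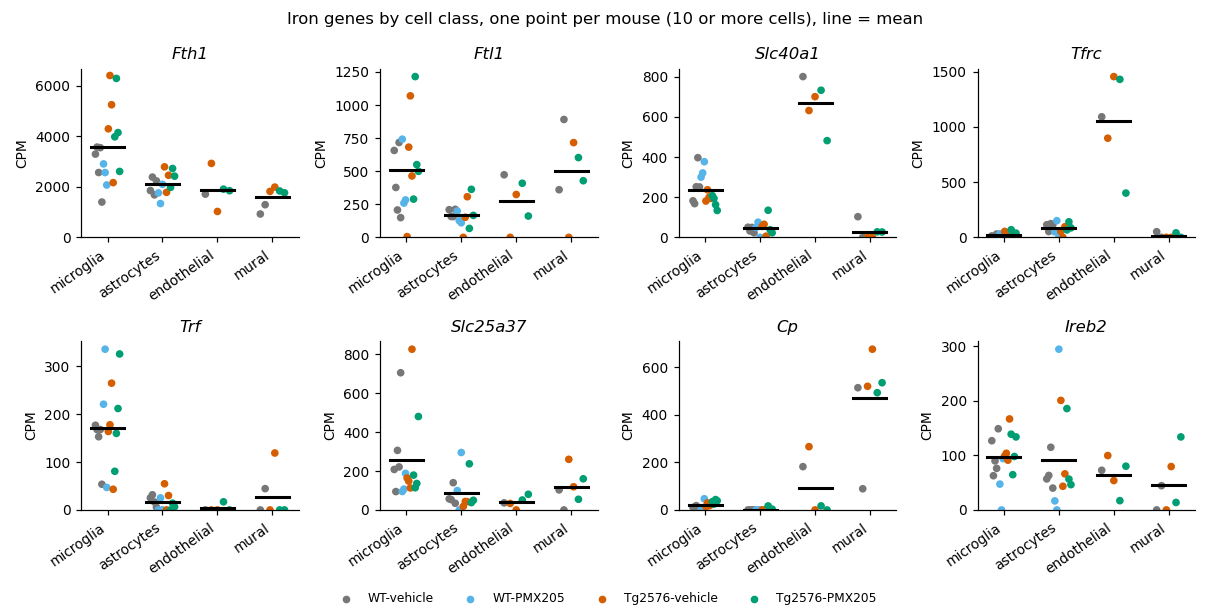
CPM of 8 iron genes in microglia, astrocytes, endothelial and mural cells, with a point for each mouse that had 10 or more cells of the class, coloured by group, and a line at the mean. Tfrc and Slc40a1 are highest in endothelial cells (means 1056 and 670), Cp in mural cells (471) and Trf in microglia (172), and 1 mouse lies near 0 for Ftl1 in every class.

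The light chain, Ftl1, was also higher in microglia than in astrocytes, in 12 of 12 mice other than Tg2576-vehicle 1, which had almost no Ftl1 UMIs. It averaged 510 ± 329 CPM in microglia (n = 16), 171 ± 93.8 in astrocytes (n = 13), 273 ± 192 in endothelial cells (n = 5) and 500 ± 312 in mural cells (n = 6). The fitted difference between microglia and astrocytes was 1.49 ± 0.21 on the log2 scale (edgeR adjusted p = 4.16e-11). Endothelial cells were lower than microglia in 4 of 4 mice other than Tg2576-vehicle 1 (log2 -1.52 ± 0.37, edgeR adjusted p = 2.43e-04), a call that was lost without the mouse block (adjusted p = 0.225) and at 90% purity (0.0720).

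That animal stood apart for this gene. It had 2 Ftl1 UMIs among 592762 (3.37 CPM, exact 95% upper limit 12.2), whereas the other 15 mice had 141 to 893 CPM over all kept cells. The value was 5.67 CPM in its microglia and 0 in its astrocytes, endothelial and mural cells. Fth1 in the same animal, at 3889 CPM over all kept cells, lay inside the range of the other mice (1541 to 4502). Of the 1389 31-base stretches in Ftl1 transcripts, 57.7% also occur in other genes, 756 of them in Ftl1-ps1, so reads from these copies cannot be fully told apart. Ftl1-ps1 held 1 UMI and Ftl1-ps2 held 13 in this mouse.

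Ferroportin and the transferrin receptor were both highest in endothelial cells among the 4 classes with replicate mice. Slc40a1 read 801 CPM in endothelial cells of WT-vehicle 1, 632 and 701 in Tg2576-vehicle 1 and 3, and 733 and 482 in Tg2576-PMX205 2 and 3. The same 5 mice had 163 to 200 in microglia and 6.02 to 54.7 in astrocytes, so the 3 classes did not overlap. The fitted excess of endothelial cells was 3.94 ± 0.38 over astrocytes (log2, 15.4-fold, edgeR adjusted p = 6.85e-20) and 1.59 ± 0.34 over microglia (3.01-fold, edgeR adjusted p = 3.06e-05). The second of these fell short of the threshold when low genes were not filtered (0.90, adjusted p = 0.0811) and when 90% of marker UMIs were required (1.48, adjusted p = 0.247). Microglia exceeded astrocytes in 13 of 13 mice without overlap (163 to 397 against 0 to 135), by a fitted 5.12-fold (log2 2.36 ± 0.27, edgeR adjusted p = 2.79e-15).

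Tfrc, which brings transferrin-bound iron into the cell, was concentrated in the endothelium. Its endothelial values were 1092 in WT-vehicle 1, 898 and 1456 in Tg2576-vehicle 1 and 3, and 1431 and 401 in Tg2576-PMX205 2 and 3. In the same mice microglia had 8.70 to 53.9 and astrocytes 54.7 to 141. Endothelial cells exceeded microglia 31.9-fold (95% interval 18.5 to 54.9, edgeR adjusted p = 7.77e-27) and astrocytes 7.79-fold (4.64 to 13.1, edgeR adjusted p = 2.12e-12). Astrocytes were above microglia in 10 of 13 mice and below in 2, with a fitted log2 difference for microglia of -2.03 ± 0.34 (edgeR adjusted p = 1.55e-08). Mural cells had 5 of the 6 mice at or below 41.1, under the astrocytes of the same mice in 6 of 6.

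Trf, the plasma iron carrier that the brain also makes, was highest in microglia among the 4 classes with replicate mice. It averaged 172 ± 88.9 CPM in microglia (range 43.2 to 336, n = 16) and 16.2 ± 16.7 in astrocytes (n = 13), and 500 of its 625 UMIs fell in microglia. Microglia were higher in 13 of 13 mice, by a fitted 10.1-fold (95% interval 6.24 to 16.5, log2 3.34 ± 0.36, edgeR adjusted p = 1.74e-17). Pooled over mice, the astrocyte level was 9.33% of the microglial level, the mural level 10.7% and the endothelial level 3.03%, and the microglial marker genes appeared in those classes at 9.27%, 10.8% and 7.27% of their pooled microglial level. By mouse, mural cells averaged 27.3 ± 48.5 CPM (n = 6, with 4 mice at 0). These Trf levels rest on few UMIs (24 in astrocytes and 4 in mural cells, where the exact 95% interval was 4.89 to 45.9 CPM), and the part of free or mixed-in RNA was not tested. For Slc40a1 the pooled astrocyte level was 18.4% of the microglial level, and for Ftl1 34.1%. Endothelial cells held 1 Trf UMI (5.07 CPM pooled, exact 95% interval 0.128 to 28.2), and the fit gave -4.91 against microglia (edgeR adjusted p = 7.86e-07, and 0.0825 at 90% purity). Of the 31-base stretches of Trf, 63.8% are shared with other genes, most with Gm20425, an overlapping gene on the same strand that had 0 UMIs. Oligodendrocytes, which are known for making transferrin, were represented by a single cell.

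Slc25a37 supplies iron to mitochondria for haem and iron-sulfur clusters. Its level was higher in microglia than in astrocytes in 10 of 13 mice (fitted 2.21-fold, log2 1.14 ± 0.29, edgeR adjusted p = 1.73e-04). It was lower in endothelial cells than in microglia in 5 of 5 mice without overlap (0 to 80.3 against 113 to 208), with a log2 difference of -1.89 ± 0.63 (edgeR adjusted p = 0.0114). That call was lost without TMM scaling (adjusted p = 0.0504), at 90% purity (0.181) and without the mice with conflicting labels (0.0662). Ireb2, whose product binds the elements printed above, averaged 96.5 ± 41.9 in microglia (n = 16), and its difference from astrocytes was not resolved (log2 0.11, 95% interval -0.51 to 0.72, edgeR adjusted p = 0.785).

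Cp, the ferroxidase that works with ferroportin on iron release, was highest in mural cells among the 4 classes with replicate mice. Its mural values were 514 and 89.1 CPM in WT-vehicle 1 and 4, 520 and 676 in Tg2576-vehicle 1 and 3, and 493 and 535 in Tg2576-PMX205 2 and 3. The same 6 mice had 7.63 to 43.6 in microglia and 0 to 3.31 in astrocytes, so mural cells were above both in 6 of 6 mice without overlap. Endothelial cells had 0 to 266 in 5 mice and were below mural cells in 5 of 5. These counts were too few over all classes for the fit, and they are given as a description. Cp overlaps Hps3 on the opposite strand.

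Hmox1, which releases iron from haem, and Slc11a2, which moves ferrous iron across membranes, rested on few UMIs. Microglia held 39 Hmox1 UMIs and averaged 11.5 ± 9.23 CPM (n = 16), and astrocytes held 13 and averaged 12.8 ± 13.8 (n = 13). Microglia held 100 Slc11a2 UMIs, with a median of 31.1 CPM over the same mice (0 to 63.0), and astrocytes held 48, with a median of 34.3 (0 to 184). Neither gene was tested between the classes. Endothelial cells had 0 Hmox1 UMIs, which allows up to 15.2 CPM by a floor of 3 counts (exact 95% upper limit 18.7), and 1 Slc11a2 UMI. Perivascular macrophages (28 cells, pooled) had 6277 CPM of Fth1, 2117 of Ftl1, 523 of Slc40a1 and 324 of Cp. No mouse gave 10 of these cells, so the values have no replicate error. Of their 85 Ftl1 UMIs, 55 came from Tg2576-PMX205 2, and without that mouse Ftl1 was 1112 CPM.

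Counted over the fit, 6 of the 7 tested members were called between microglia and astrocytes (5 higher, 1 lower in microglia), where 65.0% of the 3945 tested genes were called (31.7% higher, 33.3% lower). Between endothelial cells and astrocytes 3 of 7 were called (2 higher, 1 lower), against 41.2% of all genes (14.6% higher, 26.6% lower). Between endothelial cells and microglia 6 of 7 were called (2 higher, 4 lower), against 35.3% of all genes (12.4% higher, 22.9% lower). The median log2 difference of the tested members was 1.14 for microglia against astrocytes, beside 0.0040 over all genes, -0.74 for endothelial cells against astrocytes, beside -0.37, and -1.52 for endothelial cells against microglia, beside -0.38. The 6 calls between microglia and astrocytes were kept in all 24 alternatives fitted for that comparison. None of the 15 member calls of the class fits was lost with shared barcodes left out or with paired barcodes merged. Scaling without TMM moved the median of all genes by 0.44 for endothelial cells against astrocytes and 0.36 against microglia, and the share of higher genes among all calls from 35.3% to 50.9% and from 35.2% to 49.4%. With DESeq2 that share was 46.9% for endothelial cells against microglia, with a shift of 0.26, and the shift for microglia against astrocytes was -0.19.

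**Figure D2:**
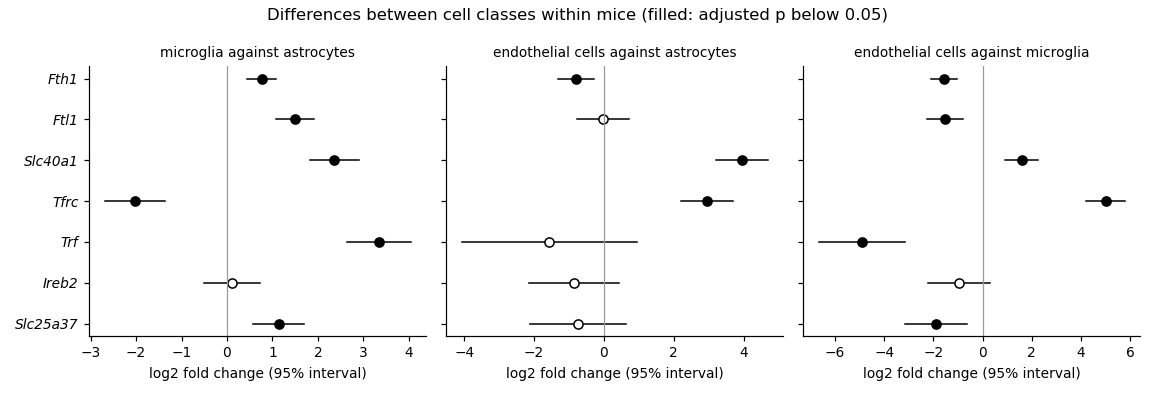
Fitted log2 fold changes of the 7 tested iron genes between cell classes, with 95% intervals, for microglia against astrocytes, endothelial cells against astrocytes and endothelial cells against microglia. Filled points are called (adjusted p below 0.05): 6, 3 and 6 of 7 genes, with Tfrc between endothelial cells and microglia at 4.99 and Trf at -4.91.

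Further genes were read from 6 lists with 65 genes, of which 23 were tested across classes. The lists held iron-regulatory proteins and ferritin turnover, uptake and reduction, export and the hepcidin axis, mitochondrial iron and iron-sulfur clusters, and haem. The last list held targets of the transcription factor NRF2, Slc7a11 among them. Between microglia and astrocytes 6 of these 23 genes were higher and 6 lower, or 52.2% called beside the 65.0% of all genes (31.7% higher, 33.3% lower). The uptake list had 4 of 5 tested genes higher and 1 lower. The haem list had 0 of 6 higher and 2 lower, and the mitochondrial list 1 of 6 higher and 2 lower. The NRF2 list had 0 of 2 higher and 1 lower, and the regulatory list 1 of 4 higher and 0 lower. Picalm, a clathrin adaptor that takes part in transferrin receptor uptake, was higher in microglia (log2 2.06), whereas Slc7a11, the cystine transporter (-3.53), Slc22a17, the lipocalin 2 receptor (-2.40), Slc48a1, a haem transporter (-2.05), and Cisd1, an iron-sulfur protein of the outer mitochondrial membrane (-1.93), were lower. Between endothelial cells and astrocytes 3 were higher and 8 lower (47.8% called, beside 41.2% of all genes). Slc39a8, a zinc and iron importer, was higher (5.14). Slc7a11 (-5.64), Slc46a1, a folate and haem transporter (-3.97), Slc22a17 (-3.44) and Lrp1, which clears haem-hemopexin (-3.02), were lower. Between endothelial cells and microglia 3 were higher and 5 lower (34.8% called, beside 35.3%). Alas1 and Alad, the enzymes of the opening steps of haem synthesis, were higher in endothelial cells (2.04 and 2.88), and Slc46a1 (-4.14), Lrp1 (-3.70) and Picalm (-1.61) were lower.

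Over the 40 sums of a class in a mouse (16 microglia, 13 astrocytes, 5 endothelial, 6 mural), the genes whose log levels followed each member most closely were ranked by Pearson correlation among 2135 genes. The sums share libraries and depth and differ by class, so the values are a description. Fth1 was followed most closely by the lysosomal genes Ctsb (r = 0.802), Hexa (0.791) and Ctsa (0.743). Trf had Hexa (0.863), Ctsa (0.860) and Abhd12 (0.857). Slc40a1 had Ly6e (0.852), Tspan13 (0.818) and Grap (0.805). Tfrc had the lactate transporter Slc16a1 (0.824), Slco1a4 (0.801, a gene of the endothelial marker list) and Spock2 (0.783). The closest gene was weaker for Slc25a37 (Rbm39, 0.740), Ireb2 (Anapc5, 0.636) and Ftl1 (Rps19, 0.629).

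Whether the transgene moved these genes was asked first in microglia. Fth1 was higher on average in Tg2576-vehicle than in WT-vehicle mice, but the difference did not pass the test. The WT-vehicle mice had 3294, 3572, 2566, 3549 and 1397 CPM, and the Tg2576-vehicle mice 4295, 6406, 5248 and 2166. The means were 2876 ± 921 (n = 5) and 4529 ± 1796 (n = 4), and 3 of the 4 Tg2576-vehicle mice lay above all WT-vehicle mice. The fitted difference was 0.68 on the log2 scale (95% interval 0.06 to 1.30, unadjusted p = 0.0324), with an edgeR adjusted p of 1.0 over 5903 genes. The lowest mouse of each group, WT-vehicle 5 and Tg2576-vehicle 4, was also the only one of its group with many opening-base barcode pairs and the only one with fewer than 20 astrocytes (4 and 9). In these 2 mice the microglial markers summed to 31729 and 35876 CPM, against 46046 or more in the other 7 mice of these groups. Among those 7 mice, a subset chosen after seeing the data, the groups did not overlap (2566 to 3572 against 4295 to 6406). The share of all genes without overlap in this subset was not counted. Across the alternative fits of this comparison, 1 to 12 of all tested genes were called. The fit with all mice under 20 astrocytes left out, chosen after seeing the data, gave 0.74 ± 0.17 (edgeR adjusted p = 0.0344). The share of the marker level and of the barcode pairs in this difference was not tested. Over 25 alternatives the log2 difference ran from 0.46 to 0.93 and the adjusted p from 0.0344 to 1.0, with a log2 difference of 0.67 when shared barcodes were left out, 0.69 with the batch term and 0.57 when disease-associated microglia were left out.

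**Figure D3:**
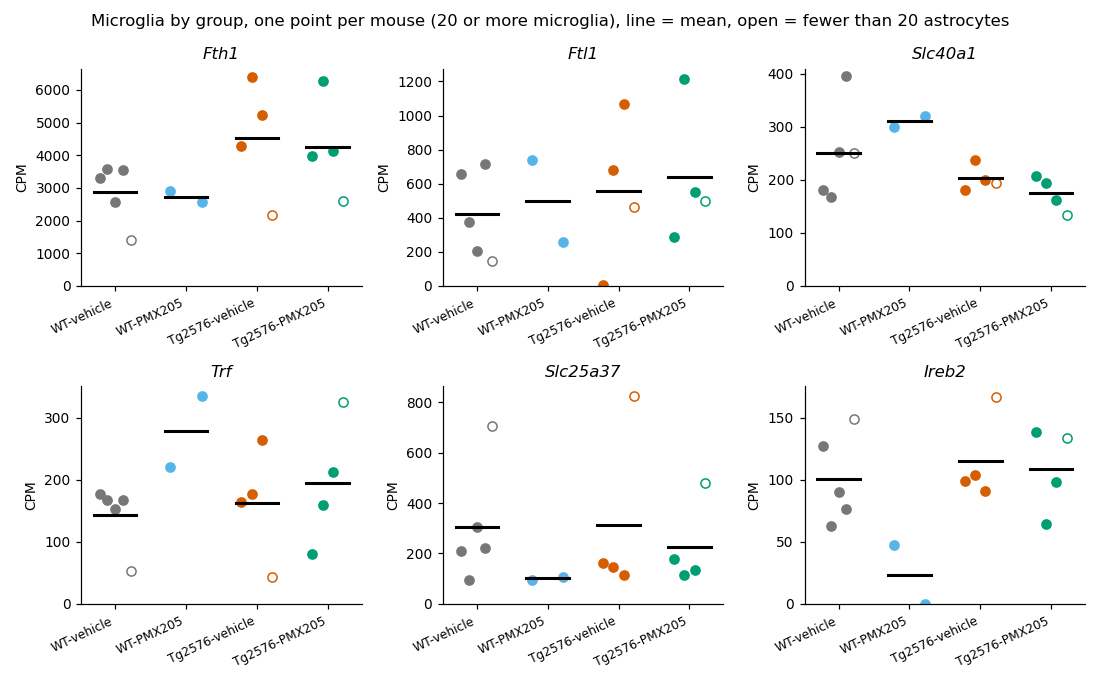
CPM of 6 iron genes in microglia by group, with a point for each mouse with 20 or more microglia, a line at the mean, and open points for mice with fewer than 20 astrocytes. The open points are the lowest Fth1 value of each group that has one (1397, 2166 and 2609), and for Slc25a37 they are the highest (705, 826 and 480).

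The other members showed no call between Tg2576-vehicle and WT-vehicle microglia. In all, 0 of the 7 tested members were called, where 0.102% of the 5903 tested genes were (6 genes, also 6 by DESeq2, and 186 with an unadjusted p below 0.05). The median log2 difference was 0.16 over the tested members and -0.04 over all genes. Slc40a1 averaged 250 ± 90.8 in WT-vehicle and 203 ± 23.9 in Tg2576-vehicle mice (log2 -0.29, 95% interval -0.90 to 0.32). Trf averaged 144 ± 51.1 and 163 ± 91.3 (log2 0.21, interval -0.60 to 1.03). Ftl1 gave 0.37 with an interval of -1.59 to 2.32. It was 0.81 without Tg2576-vehicle 1, the mouse with almost no Ftl1 UMIs, and -0.29 without Tg2576-vehicle 3. Ireb2 gave 0.16 (-0.62 to 0.94) and Slc11a2 -0.27 (-1.61 to 1.08).

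Slc25a37 separated mice, not groups. The microglia of WT-vehicle 5 (705), Tg2576-vehicle 4 (826) and Tg2576-PMX205 4 (480) had the highest CPM, and the other 12 mice of the fit had 94.3 to 306. The same 3 mice had the lowest Fth1 of their groups and 31729, 35876 and 36428 CPM of microglial markers, against 45170 or more in the others. They had 4, 9 and 1 astrocytes, where the other 12 had 31 or more. The part of these features in the Slc25a37 level was not tested. The fitted difference between Tg2576-vehicle and WT-vehicle was 0.03, and -0.52 with those mice left out, neither called.

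PMX205 in Tg2576 mice gave 0 calls among the 7 members in microglia, where 0.0339% of tested genes were called by edgeR (2 genes, 0 by DESeq2, and 147 with an unadjusted p below 0.05). Fth1 read 3978, 6290, 4146 and 2609 in the Tg2576-PMX205 mice, within the range of Tg2576-vehicle, and the log2 difference was -0.09 (95% interval -0.74 to 0.56). That interval leaves room for a fall of up to 1.67-fold. Slc40a1 averaged 175 ± 32.8 (n = 4), a log2 difference of -0.16 (-0.81 to 0.49). Trf differed by 0.14 (-0.71 to 0.98), and by -0.40 without the mice under 20 astrocytes, and Ftl1 differed by 0.27 (-1.76 to 2.30). Slc25a37 gave -0.67 (-2.20 to 0.86), and -0.05 without the mice under 20 astrocytes. Slc11a2 gave -0.07 (-1.43 to 1.29). The Ftl1 difference was -0.19 without Tg2576-vehicle 1 and -0.32 without Tg2576-PMX205 2. Cp, with 15 UMIs in Tg2576-vehicle and 37 in Tg2576-PMX205 microglia, was not tested. The hippocampus library of Tg2576-PMX205 3 held 15 of the 37 (177 CPM, against 3.54 in cortex of that mouse), and 22 were left without it. In Tg2576-PMX205 2, 10 of 13 Cp UMIs lay in disease-associated microglia, and its other microglia read 7.38 CPM. WT-vehicle mice averaged 7.24 ± 7.61 (n = 5), Tg2576-vehicle mice 20.7 ± 6.70 (n = 4) and Tg2576-PMX205 mice 35.3 ± 7.97 (n = 4), and each group overlapped the one before it. The 2 WT-PMX205 mice of the fit read 0 and 0 CPM, and WT-PMX205 3, with 15 microglia, read 47.1 from 1 UMI. The 11 mural markers, from the class with the most Cp, summed to 73.3 to 722 CPM in microglia of WT-vehicle, 119 to 670 of Tg2576-vehicle and 260 to 959 of Tg2576-PMX205 mice, with 0, 0 and 1 of them at 0. The 5 choroid plexus markers summed to at most 11.9, 32.4 and 269 CPM in these groups, with 3, 2 and 3 of them at 0. The 8 markers of perivascular macrophages summed to 15.3 to 107, 44.5 to 125 and 26.6 to 115 CPM, with 2, 0 and 1 at 0. Their part in the Cp level was not tested.

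PMX205 in WT mice rested on 2 mice with 20 or more microglia. Neither carried a C5 strain label, whereas all WT-vehicle mice except WT-vehicle 1 did, so treatment and label largely coincide here. edgeR called 0% of 5903 genes (0 by DESeq2, 381 with an unadjusted p below 0.05) and 0 of 7 members. Ireb2 had 3 UMIs in the 2 WT-PMX205 mice (47.4 and 0 CPM), below the 62.8 to 149 of the WT-vehicle mice (log2 -2.17 ± 0.80, unadjusted p = 0.00892, edgeR adjusted p = 0.701). It moved to -1.16 without WT-PMX205 2, and WT-PMX205 3, left out with 15 microglia, read 94.2. Trf read 221 and 336 against 53.7 to 177 (log2 0.91, 95% interval -0.14 to 1.96, edgeR adjusted p = 0.777). For Ireb2, Trf and Hmox1 the values of these 2 mice did not overlap those of WT-vehicle. Hmox1, which was not tested, read 0 and 0 against 5.97 to 31.4. The share of all genes without overlap was not counted. WT-PMX205 3 read 47.1 for Trf. Slc25a37 read 94.8 and 107 (log2 -1.64, 95% interval -3.93 to 0.65), and the difference was -1.06 without the mice under 20 astrocytes. For the difference of the PMX205 effect between the genotypes 0 of 7 members were called, where edgeR called 0% of genes (0 by DESeq2, 287 with an unadjusted p below 0.05). Ireb2 gave a log2 difference of effects of 2.00 (0.16 to 3.84, adjusted p = 0.982).

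Astrocytes gave no call among the 5 members tested in them (Fth1, Ftl1, Tfrc, Ireb2, Slc25a37) in the 12 mice with 20 or more of these cells. edgeR called 0% of 3897 genes in each of the 4 comparisons, as did DESeq2. Genes with an unadjusted p below 0.05 numbered 159 for Tg2576-vehicle against WT-vehicle, 168 for Tg2576-PMX205 against Tg2576-vehicle, 293 for WT-PMX205 against WT-vehicle and 250 for the difference of the PMX205 effects. Fth1 averaged 2038 ± 326 in WT-vehicle (n = 4), 1549 ± 298 in WT-PMX205 (n = 2), 2343 ± 514 in Tg2576-vehicle (n = 3) and 2375 ± 376 in Tg2576-PMX205 (n = 3). Its log2 differences were 0.18 (95% interval -0.19 to 0.56) for genotype, 0.04 (-0.36 to 0.44) for PMX205 in Tg2576 and -0.41 (-0.86 to 0.04) for PMX205 in WT mice. Ireb2 again had the lowest values in WT-PMX205 mice, with 1 UMI in 2 mice (16.6 and 0 CPM) against 40.1 to 115 in WT-vehicle. Its fitted log2 difference was -2.67 (adjusted p = 0.637), and WT-PMX205 3, with 16 astrocytes, read 295.

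**Figure D4:**
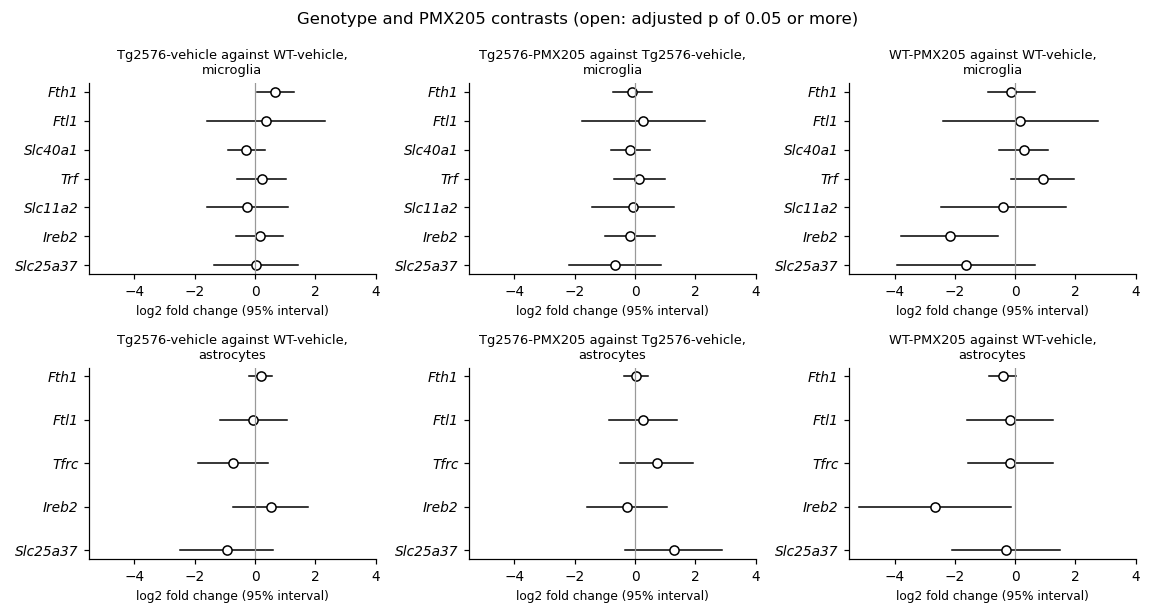
Fitted log2 fold changes of the tested iron genes for genotype, PMX205 in Tg2576 and PMX205 in WT, with 95% intervals, in microglia (top) and astrocytes (bottom). All points are open, since none was called, and Fth1 for genotype in microglia lies at 0.68 with an interval from 0.06 to 1.30.

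Between regions, Fth1 in microglia was higher in hippocampus than in cortex in 8 of 9 mice with enough cells of both. Cortex and hippocampus read 3227 and 3496 in WT-vehicle 1, 3499 and 3673 in WT-vehicle 2, 3598 and 3466 in WT-vehicle 4, 3844 and 5092 in Tg2576-vehicle 1 and 4746 and 5744 in Tg2576-vehicle 3. The Tg2576-PMX205 mice 1 to 4 read 2940, 6167, 3811 and 1810 in cortex and 5309, 6732, 5261 and 3369 in hippocampus. WT-vehicle 4 was the exception. The fitted difference was 0.32 ± 0.10 on the log2 scale (unadjusted p = 0.0034), which did not pass the test over 1784 genes (edgeR adjusted p = 0.204). None of the 5 tested members (0) was called, where 0.392% of genes were (7 by edgeR, 8 by DESeq2, 148 with an unadjusted p below 0.05). Slc25a37 gave -0.63 (95% interval -1.30 to 0.04), Slc40a1 -0.34 (-0.86 to 0.18), Ftl1 0.15 and Trf 0.07. In astrocytes of 7 mice 0 of 2 tested members were called, where 4.15% of 1012 genes were (42 by edgeR, 31 by DESeq2, 147 with an unadjusted p below 0.05). Fth1 gave 0.15 (-0.12 to 0.42) and Ftl1 -0.31 (-0.99 to 0.38).

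Disease-associated microglia (DAM) were set apart as microglia with at least 2 of 7 DAM genes (Cst7, Lpl, Itgax, Clec7a, Spp1, Gpnmb, Csf1) after each cell was thinned to 500 UMIs. DAM are the phagocytic state known from plaques. They numbered 162, and 1 cell each came from WT-vehicle 1 and WT-PMX205 1, with 1 to 76 per mouse in Tg2576 mice. Pooled over cells, Fth1 was 9030 CPM in DAM and 3667 in the other microglia, Ftl1 1450 and 530, Trf 263 and 159, Cp 61.3 and 16.7, and Slc40a1 65.7 and 220. Tg2576-PMX205 2 held 76 of the 162 DAM and 280 of their 331 Ftl1 UMIs. Over the other Tg2576 mice, DAM and other microglia had 7197 and 3885 CPM of Fth1, 439 and 463 of Ftl1, 364 and 158 of Trf, 37.3 and 26.5 of Cp, and 121 and 191 of Slc40a1. Of the 84 DAM in those mice, 37 came from Tg2576-vehicle 1, the animal with almost no Ftl1 UMIs, so the pooled Ftl1 values also depend on how many cells each mouse gave. DAM had a higher median depth, with 1146 UMIs per cell against 871.

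The 4 mice with 10 or more DAM allowed a test within mice. Fth1 in DAM and in the other microglia read 7669 and 3656 in Tg2576-vehicle 1, 1839 and 2196 in Tg2576-vehicle 4, 6634 and 3803 in Tg2576-PMX205 1, and 10789 and 4972 in Tg2576-PMX205 2. DAM were thus higher in 3 of 4 mice, with Tg2576-vehicle 4, a mouse with 9 astrocytes, as the exception. Many opening-base barcode pairs were found both in Tg2576-vehicle 4 and in Tg2576-PMX205 2, which had the highest DAM value of the 4. The part of these features was not tested. The fitted difference was 0.66 ± 0.29 on the log2 scale, or 1.59-fold (unadjusted p = 0.0225, edgeR adjusted p = 0.436). It was 0.97 without Tg2576-vehicle 4 (adjusted p = 0.0231), 0.43 without Tg2576-PMX205 2 and 0.30 without the filter on low genes (adjusted p = 0.919).

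Slc40a1 rested on 0 to 8 UMIs in the DAM of each of these 4 mice. It read 142 in DAM and 189 in the other microglia of Tg2576-vehicle 1, 254 and 189 in Tg2576-vehicle 4, 0 and 222 in Tg2576-PMX205 1, and 8.39 and 248 in Tg2576-PMX205 2. DAM were lower in 3 of the 4 mice, 1 of them with 0 UMIs among only 10702 (Tg2576-PMX205 1). The log2 difference was -1.50 ± 0.57 (unadjusted p = 0.00906, edgeR adjusted p = 0.276). It was -0.56 without Tg2576-PMX205 2, -2.31 without Tg2576-vehicle 1 and -2.07 without Tg2576-vehicle 4, none of them called. Trf read 391 in DAM and 121 in the other microglia of Tg2576-vehicle 1, 63.4 and 41.3 in Tg2576-vehicle 4, 93.4 and 80.0 in Tg2576-PMX205 1, and 176 and 155 in Tg2576-PMX205 2. The DAM values of Tg2576-vehicle 4 and Tg2576-PMX205 1 rest on 1 UMI each. The log2 difference was 0.87 (95% interval -0.15 to 1.88), and 0.28 without Tg2576-vehicle 1. Ftl1 read 0 in DAM and 6.74 in the other microglia of Tg2576-vehicle 1, 571 and 455 in Tg2576-vehicle 4, 187 (2 UMIs) and 295 in Tg2576-PMX205 1, and 2349 and 883 in Tg2576-PMX205 2, so DAM were above in 2 of these 4 mice. Its log2 difference was 0.68 (-0.14 to 1.50), and -0.33 without Tg2576-PMX205 2. Slc25a37 gave -0.53 (-1.39 to 0.33), and -2.24 with at least 3 DAM genes required. Ireb2 gave 0.32 (-0.78 to 1.43).

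In all, 0 of the 6 members tested in DAM were called, where 0.721% of 2912 genes were (21 by edgeR, 22 by DESeq2, 242 with an unadjusted p below 0.05). Fth1 was called in 6 alternatives: with cells of 1000 UMIs or more (1.03, edgeR adjusted p = 0.00163), at 90% purity (1.02, 0.0314), with the paired barcodes merged (0.92, 0.0279), with DAM defined without thinning (0.82, 1.03e-04), without Tg2576-vehicle 4, and without mice under 20 astrocytes, which left out that same mouse and gave the same values. Ftl1 was called in 2 of them (1.38, adjusted p = 0.0417 at 1000 UMIs, and 0.69, 0.043 without thinning). Without thinning 109 genes were called in all, in place of 21. Among all calls, 95.2% were higher in DAM, and 78.8% without TMM scaling.

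**Figure D5:**
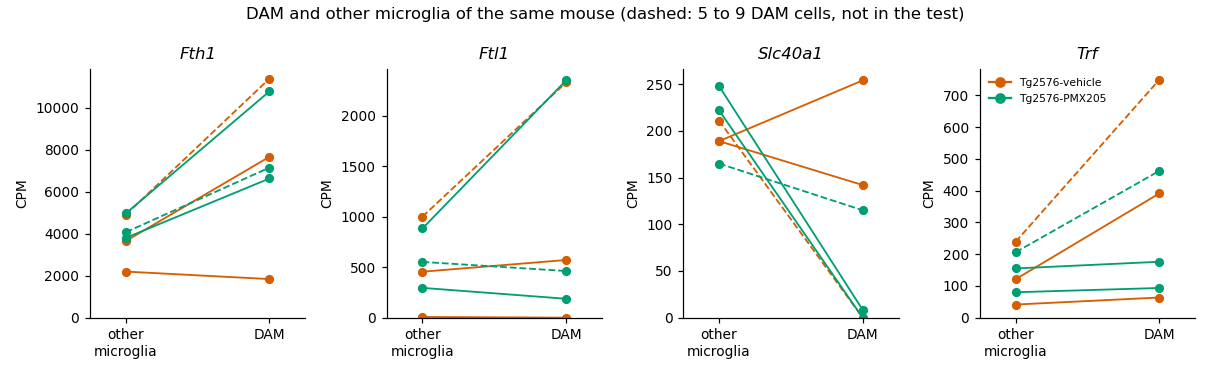
CPM of Fth1, Ftl1, Slc40a1 and Trf in other microglia and in DAM, with a line joining the values of a mouse, solid for the 4 tested mice (10 or more DAM) and dashed for mice with 5 to 9 DAM, which were not in the test. Fth1 is higher at the DAM end of 3 of the 4 solid lines, with 10789 as the top value among these 4, and Slc40a1 is lower at that end of 3 of 4.

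Genes of the wider lists were read in these comparisons too. Of them, 26 were tested for each group comparison in microglia, 23 in astrocytes, 11 and 7 between regions and 14 in DAM. By edgeR 0 were called in any of them. Calls over all genes were 0 to 0.102% for groups in microglia and 0% in astrocytes. They were 0.392% and 4.15% between regions and 0.721% in DAM, so few or no calls are expected in lists this small.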

How the data were processed

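Single cells were isolated from dissected cortex and hippocampus, enriched with CD11b and ACSA-2 beads and made into SureCell ddSEQ libraries. The authors deposited raw UMI counts per gene and barcode (kallisto bustools through kb_python, mm10, GENCODE M21), and the lowest barcode in the files holds 300 UMIs. The submitters' processing notes also name bcl2fastq 2.18.0.12 and Seurat. Sequencing saturation is not given in the sources used here.

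Cells with 500 or more UMIs, 300 or more genes and at most 5% mitochondrial UMIs were kept (5965), and the top 6% of Scrublet scores in each library were removed as doublets (359). A cell was placed in a class when it had 3 or more marker UMIs from 2 or more genes and 70% or more of its marker UMIs came from that class. UMIs were summed per mouse and class (20 or more cells for group and region comparisons, 10 or more for class and DAM comparisons) and tested with edgeR 4.0.16 in R 4.3.3 (quasi-likelihood test, filterByExpr, TMM, Benjamini-Hochberg adjustment over all tested genes, called below 0.05). All groups of a class entered one fit, so a comparison shares its estimate of spread, and comparisons that name the same group share its mice. Classes, regions and DAM states came from the same animals and were compared with the mouse as a block. DESeq2 1.42.0 was an alternative. Spread in the DAM fit was shared by all genes. Cell handling and figures used Python 3.11.15, scanpy 1.11.5, pandas 2.3.3, NumPy 2.4.6, SciPy 1.17.1 and matplotlib 3.10.9, and the fits were tested on simulated data. Intervals for counts are exact Poisson intervals and cover counting error only. IREs and shared stretches were computed from the mm10 genome and GENCODE M21 annotation.

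All 10 members were followed in each comparison, though not every value is printed. Genes of the 6 further lists were named only when called, up to 5 per comparison by smallest p, and genes of like pattern were the 3 with the highest Pearson r of log2(CPM + 10), for members with 200 or more UMIs in the sums. The members, lists and tests were chosen with earlier results of these data known. Replicate numbers were given in accession order and pair nothing across groups. Columns not mapped to a sample numbered 0.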

Additional observations from a re-analysis of the deposited data

Results flagged for a closer look

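Of 30 tests for a mouse far from the others of its group, 4 gave one, where chance gives about 1 in 20. Trf in microglia was 53.7 CPM in WT-vehicle 5 and 153 to 177 in the other 4 WT-vehicle mice. Ireb2 in microglia was 167 CPM in Tg2576-vehicle 4 and 91.3 to 104 in the other 3 mice. Slc25a37 in microglia was 826 CPM in the same Tg2576-vehicle 4, against 113 to 164. Tfrc in astrocytes was 52.8 CPM (5 UMIs) in WT-vehicle 2 and 114 to 124 in the other 3 mice. WT-vehicle 5 and Tg2576-vehicle 4 are the mice with many opening-base barcode pairs and few astrocytes, and the part of these features was not tested.

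In microglia, Ftl1 was higher in hippocampus than in cortex in 4 of 4 Tg2576-PMX205 mice (369 against 226, 1404 against 1162, 696 against 507 and 711 against 275 CPM) and lower in both Tg2576-vehicle mice with enough cells. One of those 2 mice is Tg2576-vehicle 1, with 8.88 and 0 CPM, and the other had 1173 in cortex and 967 in hippocampus. Slc40a1 had the reverse pattern: hippocampus was above cortex in both (2) Tg2576-vehicle mice (188 against 178 and 233 against 166) and below it in the 4 Tg2576-PMX205 mice (184 against 226, 183 against 197, 70.8 against 191 and 74.9 against 197). In WT-vehicle 1, 2 and 4, hippocampus and cortex read 824 and 601, 275 and 451, and 578 and 799 for Ftl1. For Slc40a1 they read 106 and 207, 125 and 198, and 413 and 388. The difference between the groups was not tested for either gene, and the share of all genes with such a reversal was not counted.

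Among copies of the ferritin light chain gene, which entered no comparison, Ftl1-ps2, a processed pseudogene, had 13 UMIs in Tg2576-vehicle 1 (7 in cortex and 6 in hippocampus) and at most 1 in any WT-vehicle mouse. Tg2576-PMX205 3 had 7. Tg2576-vehicle 1 is the mouse with 2 Ftl1 UMIs.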

How the results depend on the processing

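The number of members called was the same in 293 of 313 alternative fits over the 14 comparisons. Of the 20 others, 7 were for endothelial cells against astrocytes (2 called in 6 of them and 4 without the filter on low genes, in place of 3), 5 for endothelial cells against microglia (2 to 5 in place of 6), 6 in DAM, and 1 for microglia against astrocytes (7 without the filter, in place of 6); the added gene without the filter was Cp. With mice that had fewer than 20 astrocytes left out, an alternative chosen after seeing the data, 1 member (Fth1) was called between Tg2576-vehicle and WT-vehicle microglia. With 90% of marker UMIs required, 2 members were called between endothelial cells and microglia in place of 6. In DAM 2 were called at 1000 UMIs per cell or without thinning, and 1 at 90% purity, with paired barcodes merged or without mice under 20 astrocytes. Calls over all genes also moved in the DAM alternatives, from 21 to between 11 and 109, with 109 without thinning. Leaving out each mouse gave 0 to 1 in DAM (1 without Tg2576-vehicle 4), 2 to 3 for endothelial cells against astrocytes (2 without Tg2576-vehicle 3), 6 for both other class comparisons and 0 elsewhere. For the 15 called class differences, 346 of 360 alternative values kept their call, 14 lost it and 0 changed sign; the cause was not tested. Of the 67 member differences that were not called, 35 changed sign in 1 or more alternatives (149 of 1427 values).

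Counts over all genes moved by more than 1.5 times: from 6 to 1 (cortex only) and 12 (no filter on low genes) for Tg2576-vehicle against WT-vehicle microglia, 7 to 0 (90% purity) and 17 (without WT-vehicle 2) for region in microglia, 42 to 1 (90% purity) and 69 (no filter) for region in astrocytes, and 21 to 11 (without Tg2576-PMX205 2) and 109 (no thinning) in DAM. The class counts of 2564, 1624 and 1392 reached 4387, 2330 and 2466 without the filter, and the last 2 fell to 531 and 548 at 90% purity. The 2 calls for PMX205 in Tg2576 microglia were 0 by DESeq2. For PMX205 in Tg2576 astrocytes the 0 calls became 7 with the batch term, for PMX205 in WT astrocytes 4 without WT-PMX205 1, for genotype in astrocytes 2 without mice with conflicting labels, and for the difference of effects 2 (astrocytes, batch term) and 1 (microglia, no filter). For PMX205 in WT microglia 1 was called without the filter. In region calls of astrocytes the share of higher genes was 47.6%, and 67.7% with DESeq2 and 31.8% without TMM.

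Without the mouse block, Fth1 between endothelial cells and astrocytes (log2 -0.47, edgeR adjusted p = 0.128) and Ftl1 between endothelial cells and microglia (-1.14, 0.225) were not called, and no other member's call changed. The hippocampus-only fit for PMX205 in WT mice and for the difference of effects could not be made, nor could these in astrocytes with 50 or more cells. Depth limits Hmox1 and Cp, which passed the filter in no comparison, Slc11a2, tested only between groups in microglia, and Tfrc, not tested within microglia.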
